A study of Mus musculus with 9 samples.

Results

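The genes described here serve the presentation of peptides on major histocompatibility complex (MHC) class I molecules. There are 10 of them among the 55385 genes of the count table, taken by symbol: B2m, H2-K1, H2-D1, Tap1, Tap2, Tapbp, Psmb8, Psmb9, Psmb10 and Nlrc5. All 10 passed the filter on low counts, as did 15519 genes in all, and every member had at least 8 counts in every library. RNA came from sorted tdTomato-positive cells of the kidney cortex and outer medulla of male mice aged 9 to 12 weeks, in 3 groups of 3 libraries. The Sox9 d14 mice were Sox9IRES-CreERT2/+:R26RtdT/+, had ischemia-reperfusion injury of both kidneys, received tamoxifen on days 10 and 12 and were sampled on day 14. The Sox9 48 h mice had the same genotype and injury, received tamoxifen when the injury was made and were sampled 48 h later. The uninjured mice were Slc34a1IRES-CreERT2/+:R26RtdT/+ and received tamoxifen. In all groups a tamoxifen-activated Cre recombinase removes a stop before the red fluorescent protein tdTomato. It is driven by Sox9, a transcription factor of injured and progenitor epithelium, in both injured groups, and by Slc34a1, a phosphate transporter of the proximal tubule, in the uninjured group. Between injured and uninjured cells, injury and Cre driver change together and cannot be told apart. Between d14 and 48 h, the same holds for the time after injury and the tamoxifen schedule.

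MHC class I molecules show peptides from inside the cell to CD8+ T cells. Proteasomes cut proteins into peptides, and in cells exposed to interferon-gamma the catalytic subunits encoded by Psmb8, Psmb9 and Psmb10 replace the standard subunits encoded by Psmb5, Psmb6 and Psmb7, which gives the immunoproteasome. The transporter made of TAP1 and TAP2 carries peptides into the endoplasmic reticulum, tapasin (Tapbp) bridges the transporter and the empty class I molecule, and the loaded complex of a heavy chain (H2-K1 or H2-D1) with beta-2 microglobulin (B2m) travels to the cell surface. NLRC5 is a transactivator of MHC class I genes and acts through DNA-bound factors at a conserved promoter module. Tubular epithelium carries class I at a low level that is known to increase in inflamed or injured kidney.

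The windows of 3 promoters are printed first because B2m, H2-K1 and H2-D1 share an arrangement of short motifs. Each runs from 250 bases before to 50 bases after the annotated start, 5′ to 3′ on the strand of the gene, and comes from RefSeq annotation of GRCm38.p6, which held a window for 8 of the 10 genes. The B2m window is chr2:122147437-122147736 on the plus strand, that of H2-K1 is chr17:34000298-34000597 on the minus strand, and that of H2-D1 is chr17:35262844-35263143 on the plus strand. Capitals mark matches to the motifs named after the sequences.
B2m: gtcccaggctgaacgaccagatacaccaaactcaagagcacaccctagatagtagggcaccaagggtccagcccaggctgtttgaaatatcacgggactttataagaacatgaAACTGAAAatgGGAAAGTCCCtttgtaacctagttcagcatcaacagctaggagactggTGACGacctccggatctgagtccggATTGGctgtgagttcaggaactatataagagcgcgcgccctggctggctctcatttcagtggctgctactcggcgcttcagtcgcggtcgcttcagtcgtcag
H2-K1: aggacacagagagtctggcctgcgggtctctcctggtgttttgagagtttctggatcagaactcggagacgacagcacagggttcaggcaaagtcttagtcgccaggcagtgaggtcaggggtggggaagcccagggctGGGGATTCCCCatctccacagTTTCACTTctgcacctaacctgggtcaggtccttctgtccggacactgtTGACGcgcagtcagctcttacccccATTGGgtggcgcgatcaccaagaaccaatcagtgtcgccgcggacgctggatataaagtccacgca
H2-D1: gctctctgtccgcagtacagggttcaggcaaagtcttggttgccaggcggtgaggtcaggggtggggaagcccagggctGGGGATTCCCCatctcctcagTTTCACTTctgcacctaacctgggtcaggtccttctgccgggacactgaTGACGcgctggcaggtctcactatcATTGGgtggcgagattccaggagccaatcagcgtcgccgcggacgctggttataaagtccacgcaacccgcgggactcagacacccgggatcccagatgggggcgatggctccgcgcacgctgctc
The motif AANNGAAA, a half-site pair read by interferon regulatory factors, was found in all 3 windows, as was the kappaB consensus, the binding motif of NF-kappaB factors, of which H2-K1 and H2-D1 hold 2 matches that overlap by all but a base each. On both strands the first occurs in 23.9% and the other in 8.46% of the 32841 RefSeq promoter windows of this length. Of the 8 member windows, 3 held each motif. These 3 are printed because they share motifs, so a match in all of them is no result in itself. Further downstream TGACG, the core of a CRE half-site, is followed after 20 bases by ATTGG, an inverted CCAAT box. This spaced pair was searched after the sequences had been read, and it occurs in 31 windows, 0.0944% of all, among which those of B2m, H2-K1, H2-D1 and the nonclassical heavy chain H2-M3 belong to class I genes. It spans bases -78 to -49 from the start in B2m, -41 to -12 in H2-K1 and -101 to -72 in H2-D1. Over 239 aligned bases the H2-K1 and H2-D1 windows were 89.5% identical, so their shared motifs are not independent.

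**Figure D1:**
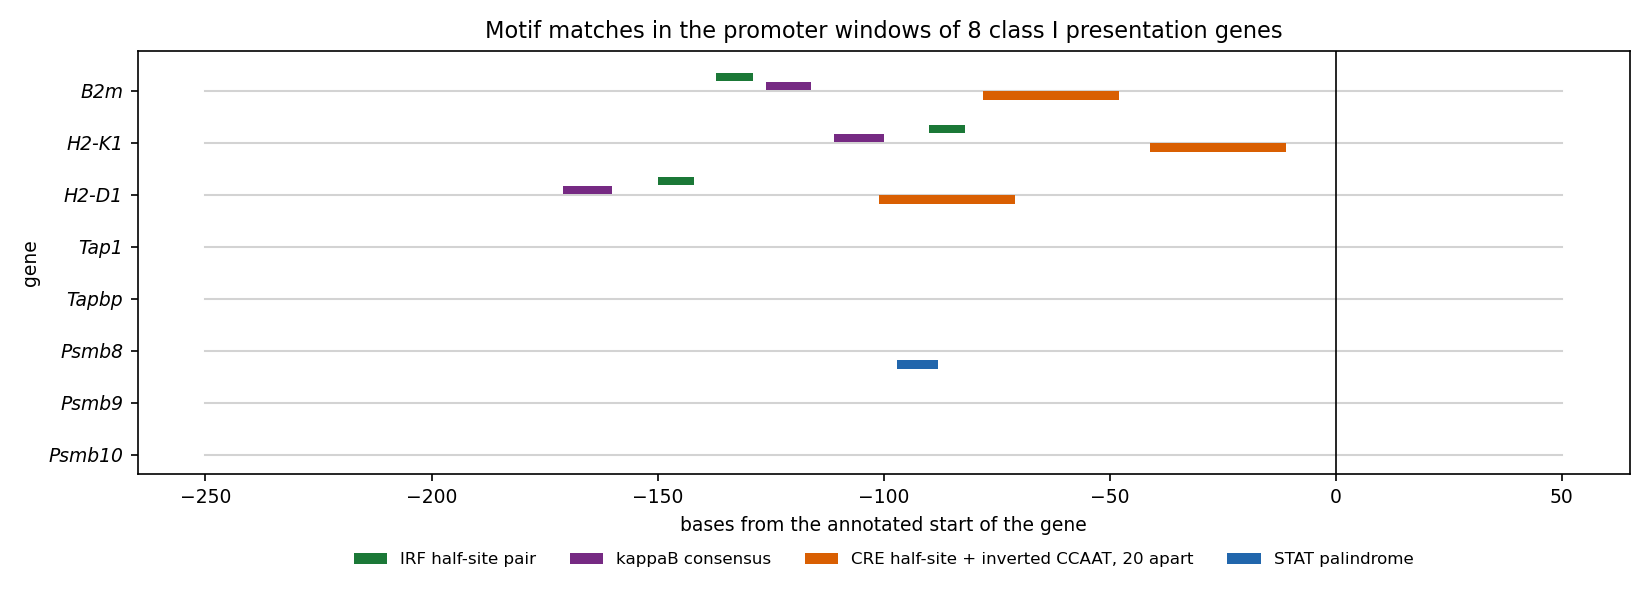
Positions of motif matches (coloured bars, either strand) in the promoter windows of the 8 class I presentation genes with a RefSeq window, by distance in bases from the annotated start. B2m, H2-K1 and H2-D1 each hold an interferon regulatory factor motif, a kappaB match and the spaced pair, and Psmb8 holds a STAT palindrome.

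Of the other 5 windows only that of Psmb8 held a match. At chr17:34197945-34198244 on the plus strand it contains TTCNNNGAA, the palindrome read by factors of the STAT family, which occurs in 8.30% of windows. The match is capitalised below.
Psmb8: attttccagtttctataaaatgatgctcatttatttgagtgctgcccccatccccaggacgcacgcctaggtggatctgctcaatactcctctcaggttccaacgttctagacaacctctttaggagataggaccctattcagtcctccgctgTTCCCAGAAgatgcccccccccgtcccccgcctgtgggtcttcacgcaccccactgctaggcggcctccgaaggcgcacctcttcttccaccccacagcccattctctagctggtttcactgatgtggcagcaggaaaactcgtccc
The windows of Tap1 and Psmb9 are 2 readings of a shared stretch of 275 bases, because these genes start next to each other and are transcribed in opposite directions. None of the motifs searched was found there, or in the windows of Tapbp and Psmb10, which says only that these letters are absent from those 300 bases. The windows of H2-D1, Tapbp, Psmb8 and Psmb9 lie inside the GENCODE gene positions given below, which begin further upstream than the RefSeq starts. Which start these cells use was not tested.

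In GRCm38, B2m lies at chr2:122147686-122153083. H2-K1 (chr17:33996017-34000347), H2-D1 (chr17:35262730-35267499), Tapbp (chr17:33915899-33929292), Psmb9 (chr17:34181987-34187764), Tap1 (chr17:34187553-34197225), Psmb8 (chr17:34197721-34201454) and Tap2 (chr17:34203527-34216321) lie in the MHC on chromosome 17, while Nlrc5 (chr8:94434356-94527272) and Psmb10 (chr8:105935735-105938444) lie on chromosome 8. Psmb9 and Tap1 overlap at their 5′ ends on opposite strands, and no source used here says whether counting used the strand of the reads. H2-K1 and H2-D1 resemble each other and the H2-Q and H2-T genes, and the counting divides reads between similar genes, so the values of these heavy chains are less certain than their counts show.

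Total counts per library were 19239354 to 30414758 at d14, 8036054 to 23794029 at 48 h and 31585507 to 51631204 in uninjured cells, with 48 h replicate 2 the shallowest. Values are CPM, counts scaled to a common library size, here with TMM factors. Sox9 itself stood at 28.8 to 38.8 CPM at d14, 7.57 to 22.1 CPM at 48 h and 0.0351 to 0.635 CPM in uninjured cells. The share of counts from mitochondrial genes was 15.2 to 25.2% at d14, lowest in replicate 1, 32.7 to 39.2% at 48 h and 25.1 to 29.2% in uninjured cells. Markers of tubule segments differed as well. Summed proximal tubule markers reached 3012 to 4230 CPM at d14, 5644 to 11207 CPM at 48 h and 16516 to 19010 CPM in uninjured cells, while summed loop of Henle markers, led by Umod, reached 2667 to 4816, 748 to 996 and 291 to 360 CPM in the same 3 groups. Distal and connecting tubule markers summed to 1991 to 3591 CPM at d14, 214 to 395 CPM at 48 h and 65.1 to 111 CPM in uninjured cells, and principal cell markers of the collecting duct to 457 to 671 CPM at d14, 306 to 358 CPM at 48 h and 55.6 to 78.6 CPM in uninjured cells. Intercalated cell markers summed to 204 to 229 CPM at d14, 67.6 to 87.3 CPM at 48 h and 16.5 to 25.9 CPM in uninjured cells. Of the 5 loop of Henle markers 4 had positive log2 fold changes in each comparison. The lowest was -1.63 in d14 over uninjured, -0.74 in 48 h over uninjured and -0.89 in d14 over 48 h. The part of these shifts in the class I differences was not tested. In sorted bulk RNA a change in which cells were captured and a change in RNA per cell cannot be told apart.

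Class I presentation genes were higher in Sox9 d14 cells than in uninjured cells. Of the 10 genes, 9 rose at an edgeR adjusted p under 0.05, the threshold for a call throughout, against 25.1% of all genes tested that were called higher and 20.7% called lower. B2m, with 0.62 ± 0.24 (log2 fold change ± SE throughout), fell just short of a call. The fold changes ran from 0.62 to 2.40 on the log2 scale with a median of 1.70, where the median of all genes tested was 0.06. Summed over the 10 genes the level was 741, 1200 and 1133 CPM in the d14 libraries, against 429, 455 and 400 CPM in the uninjured libraries. The count stayed between 8 and 10 of 10 under every alternative tried.

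In Sox9 48 h cells 7 of the 10 genes rose over uninjured cells, where 17.4% of all genes tested were called higher and 11.7% lower. Those were B2m, H2-K1, H2-D1, Tap2, Tapbp, Psmb10 and Nlrc5, while Tap1, Psmb8 and Psmb9 had positive fold changes that were not called. The median was 0.91 on the log2 scale, beside 0.02 for all genes. No member was called lower by edgeR in any of the 3 comparisons, also at an unadjusted p under 0.05, or by DESeq2 or limma voom. The count of 7 depended on single libraries. It was 2 without 48 h replicate 3, 4 without uninjured replicate 1, 4 without uninjured replicate 2 and 3 without uninjured replicate 3, and it was 10 without 48 h replicate 2.

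Set directly against Sox9 48 h cells, Sox9 d14 cells had higher H2-K1, Tap1, Tap2 and Tapbp, 4 of the 10 genes, where 16.8% of all genes tested were called higher and 16.3% lower. This is also the test of whether the 2 comparisons with uninjured cells, which share the uninjured libraries, differ from each other. Fold changes of the 10 genes ran from -0.09 to 1.12 with a median of 0.68 on the log2 scale, beside 0.05 for all genes. The count was 2 without d14 replicate 2, 2 without d14 replicate 3 and 2 without 48 h replicate 1. H2-K1 and Tapbp kept their call under all 16 alternatives.

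**Figure D2:**
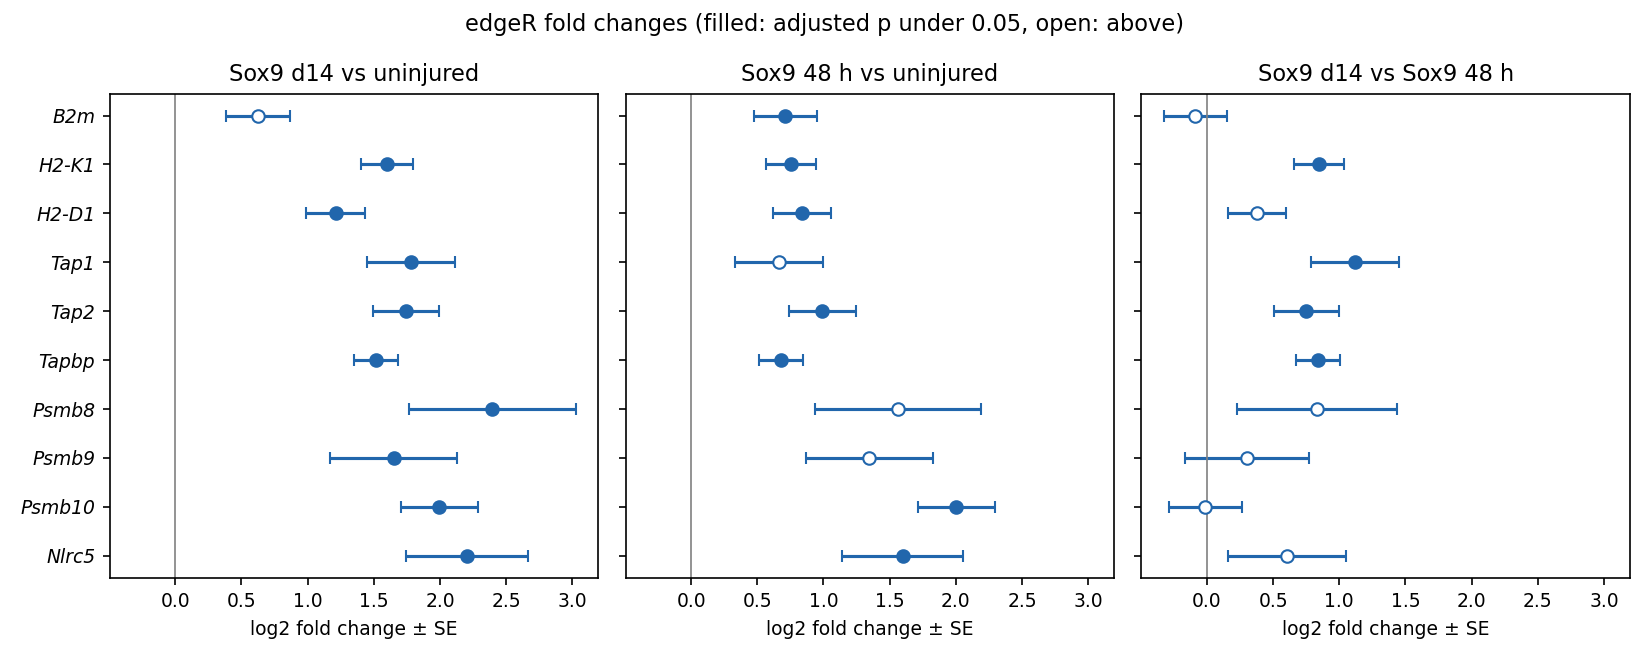
Log2 fold change with its standard error (horizontal axis) for each of the 10 genes in the 3 comparisons, from edgeR. Filled points passed an adjusted p of 0.05. All points lie above 0 against uninjured cells, and in d14 against 48 h B2m, Psmb9 and Psmb10 lie near 0 while H2-K1, Tap1, Tap2 and Tapbp lie between 0.75 and 1.12.

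The surface complex comes from a heavy chain gene and B2m. H2-K1 had 212, 368 and 342 CPM in the d14 libraries, 159, 156 and 199 CPM in the 48 h libraries, and 107, 102 and 95.005 CPM in the uninjured libraries. No d14 library overlapped the 48 h range and no 48 h library overlapped the uninjured range. Its log2 fold change was 1.60 ± 0.19 for d14 over uninjured (edgeR adjusted p = 4.8e-05), 0.76 ± 0.19 for 48 h over uninjured (edgeR adjusted p = 0.013) and 0.84 ± 0.19 for d14 over 48 h (edgeR adjusted p = 0.0066). The 48 h call was lost without 48 h replicate 3 and without uninjured replicate 3, with adjusted p from 0.0011 to 0.051 over its alternatives.

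H2-D1, the other classical heavy chain measured, had 185, 328 and 320 CPM at d14, 221, 168 and 253 CPM at 48 h and 135, 114 and 112 CPM in uninjured cells. Both injured groups stood wholly above the uninjured libraries, and they overlapped each other. Over uninjured cells the log2 fold change was 1.21 ± 0.22 at d14 and 0.84 ± 0.22 at 48 h, and d14 over 48 h gave 0.38 ± 0.22 (edgeR adjusted p = 0.21). The 48 h call was lost without 48 h replicate 3, uninjured replicate 2 or uninjured replicate 3, with adjusted p from 0.0014 to 0.064 over its alternatives, and d14 over 48 h was called with scaling by library totals and without d14 replicate 1.

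B2m, the light chain shared by all class I molecules, had 141, 263 and 203 CPM at d14, 227, 157 and 261 CPM at 48 h, and 117, 154 and 122 CPM in uninjured libraries. Here d14 replicate 1 lay within the uninjured range. The log2 fold change was 0.62 ± 0.24 for d14 over uninjured (edgeR adjusted p = 0.054, from 0.00077 to 0.21 over its alternatives) and 0.71 ± 0.24 for 48 h over uninjured (edgeR adjusted p = 0.047, from 0.014 to 0.16 over its alternatives). Between d14 and 48 h it was -0.09 ± 0.24. In d14 over uninjured B2m was called by DESeq2, by limma voom, with scaling by library totals, with only those 2 groups fitted, without d14 replicate 1 and without 48 h replicate 2. In 48 h over uninjured it was not called with no filter on low counts, with a replicate block, or without any of the uninjured libraries, 48 h replicate 1 or 3, or d14 replicate 3.

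Within each library the ratio of H2-K1 to B2m counts was 1.50, 1.40 and 1.68 at d14, 0.699, 0.994 and 0.764 at 48 h and 0.918, 0.662 and 0.776 in uninjured cells. This ratio does not depend on library scaling, and it was set up after the values were seen. The d14 libraries stood apart from both other groups, with a difference of 0.97 on the log2 scale from uninjured and 0.91 from 48 h cells, each at p = 0.10 in a two-sided exact permutation test, the smallest value that 3 against 3 libraries allow. Between 48 h and uninjured cells the groups overlapped and the difference was 0.06 (exact permutation p = 0.80).

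**Figure D3:**
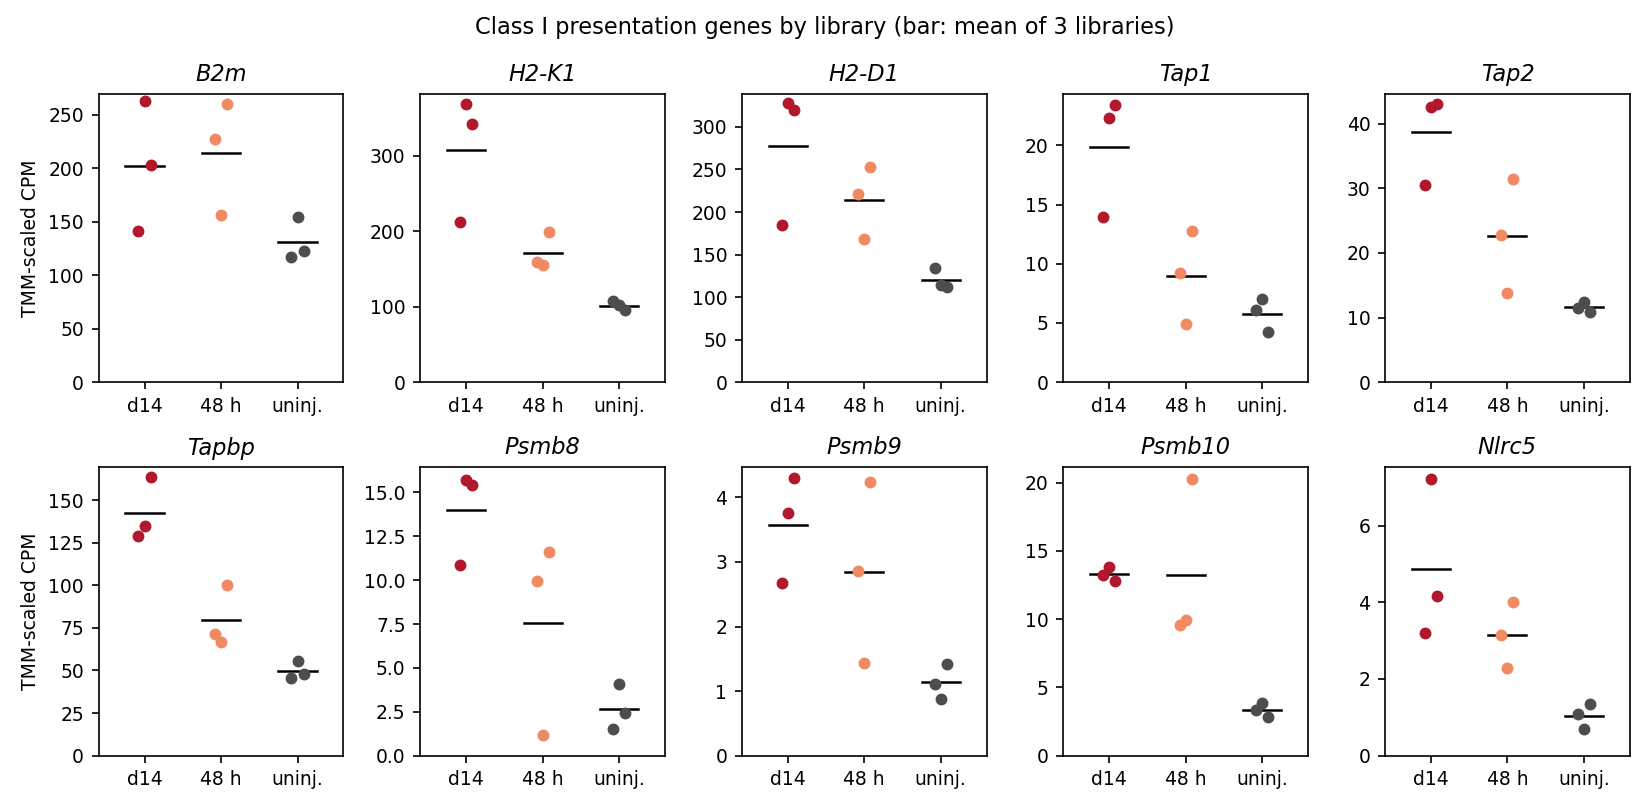
TMM-scaled CPM of each gene in every library (points) with the mean of each group (bars), Sox9 d14, Sox9 48 h and uninjured from left to right on axes that start at 0. For H2-K1 and Tapbp the 3 groups do not overlap, while for B2m and H2-D1 d14 and 48 h overlap.

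The transporter and tapasin genes held 3 of the 4 calls between d14 and 48 h. Tap1 had 13.98, 22.3 and 23.4 CPM at d14, 9.20, 4.89 and 12.8 CPM at 48 h, and 6.06, 7.06 and 4.26 CPM in uninjured cells. The d14 libraries were above all others, and the 48 h libraries overlapped the uninjured ones. Its log2 fold change was 1.78 ± 0.33 for d14 over uninjured (edgeR adjusted p = 0.0011), 0.66 ± 0.33 for 48 h over uninjured (edgeR adjusted p = 0.16) and 1.12 ± 0.33 for d14 over 48 h (edgeR adjusted p = 0.024). That last call was lost without d14 replicate 2, d14 replicate 3 or 48 h replicate 1, with adjusted p from 0.0013 to 0.085 over its alternatives, and without 48 h replicate 2 Tap1 was called in 48 h over uninjured.

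Tap2, the partner of Tap1 in the transporter, had 30.5, 42.6 and 43.1 CPM at d14, 22.7, 13.8 and 31.5 CPM at 48 h and 11.5, 12.4 and 10.8 CPM in uninjured cells. The injured groups were both above the uninjured range, and d14 replicate 1 lay below 48 h replicate 3. Its log2 fold change was 1.74 ± 0.25 for d14 and 0.99 ± 0.25 for 48 h over uninjured, and 0.75 ± 0.25 for d14 over 48 h (edgeR adjusted p = 0.038). The call at 48 h over uninjured was lost without 48 h replicate 3 or uninjured replicate 3, with adjusted p from 0.00079 to 0.057 over its alternatives. That for d14 over 48 h was lost with only those 2 groups fitted and without d14 replicate 2 or 3, 48 h replicate 1 or 2, or any uninjured library, with adjusted p from 0.0010 to 0.12 over its alternatives.

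Tapbp had 129, 135 and 164 CPM at d14, 71.1, 66.8 and 100.3 CPM at 48 h and 45.5, 55.8 and 48.0 CPM in uninjured cells. The 3 groups were fully separate. Its log2 fold change was 1.52 ± 0.17 for d14 over uninjured (edgeR adjusted p = 2.6e-05), 0.68 ± 0.17 for 48 h over uninjured (edgeR adjusted p = 0.011) and 0.84 ± 0.17 for d14 over 48 h (edgeR adjusted p = 0.0033). Without uninjured replicate 1 the 48 h call was lost (adjusted p from 0.00093 to 0.052 over its alternatives).

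All 3 immunoproteasome subunits rose at d14 against uninjured cells, Psmb10 also rose at 48 h, and their adjusted p between d14 and 48 h was at least 0.32 with edgeR. Psmb10 had 13.2, 13.9 and 12.8 CPM at d14, 9.59, 9.92 and 20.3 CPM at 48 h, and 3.32, 3.83 and 2.87 CPM in uninjured cells. Both injured groups lay well above the uninjured one, and 48 h replicate 3 was the highest of all libraries. The log2 fold change was 1.99 ± 0.29 for d14 (edgeR adjusted p = 0.00019) and 2.01 ± 0.29 for 48 h (edgeR adjusted p = 0.00055) over uninjured, and -0.01 ± 0.28 for d14 over 48 h.

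Psmb8 had 10.8, 15.7 and 15.4 CPM at d14, 9.93, 1.15 and 11.6 CPM at 48 h, and 1.52, 4.11 and 2.41 CPM in uninjured cells. The 48 h libraries were divided, with replicate 2, where Psmb8 had 8 counts, below every uninjured library. Over uninjured cells the log2 fold change was 2.40 ± 0.63 at d14 (edgeR adjusted p = 0.011) and 1.56 ± 0.63 at 48 h (edgeR adjusted p = 0.091, from 0.0020 to 0.28 over its alternatives). The 48 h difference was called by DESeq2, by limma voom and without 48 h replicate 2, and the d14 call was lost with no filter on low counts (adjusted p from 0.00011 to 0.053 over its alternatives).

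Psmb9, the least abundant of the 3, had 2.68, 3.76 and 4.30 CPM at d14, 2.86, 1.44 and 4.24 CPM at 48 h, and 1.11, 0.878 and 1.42 CPM in uninjured cells. It rested on 76 to 158 counts per library at d14, 10 to 92 at 48 h and 25 to 56 in uninjured cells. The log2 fold change over uninjured cells was 1.65 ± 0.48 at d14 (edgeR adjusted p = 0.015, from 0.00076 to 0.058 over its alternatives) and 1.35 ± 0.48 at 48 h (edgeR adjusted p = 0.056, from 0.011 to 0.23 over its alternatives). The d14 call was lost without d14 replicate 3, uninjured replicate 1 or uninjured replicate 2, and at 48 h Psmb9 was called by DESeq2, by limma voom and without 48 h replicate 2.

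The standard subunits carry the same catalytic roles in cells at rest. Psmb5, Psmb6 and Psmb7 averaged 72.5 ± 6.0, 78.7 ± 7.0 and 50.3 ± 4.5 CPM at d14, 127 ± 17.5, 124 ± 14.1 and 75.5 ± 5.0 CPM at 48 h, and 96.5 ± 8.1, 112 ± 2.5 and 82.9 ± 5.1 CPM in uninjured cells (SD, n = 3 each). All 3 fell at d14 against uninjured cells, by 0.41 ± 0.13, 0.51 ± 0.12 and 0.72 ± 0.11 on the log2 scale, and all 3 fell at d14 against 48 h cells. The first 2 of these directions against uninjured cells turned, to 0.16 and 0.05, when libraries were scaled by their total alone. At 48 h Psmb5 rose by 0.40 ± 0.13 (edgeR adjusted p = 0.036) and the others were not called.

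Ratios of an immunoproteasome subunit to the standard subunit it replaces remove the library scaling. They compare groups only, since they were not corrected for gene length. Psmb8 over Psmb5 was 0.142, 0.240 and 0.204 at d14, 0.0887, 0.00785 and 0.0938 at 48 h, and 0.0144, 0.0442 and 0.0266 in uninjured cells. Psmb9 over Psmb6 was 0.0366, 0.0491 and 0.0497 at d14, 0.0256, 0.0103 and 0.0355 at 48 h, and 0.00989, 0.00765 and 0.0130 in uninjured cells. Psmb10 over Psmb7 was 0.282, 0.286 and 0.231 at d14, 0.132, 0.122 and 0.280 at 48 h, and 0.0390, 0.0497 and 0.0332 in uninjured cells. For each pair the d14 libraries lay above all uninjured ones, by 2.90, 2.17 and 2.73 on the log2 scale, at the smallest two-sided exact permutation p of 0.10. Against 48 h cells the first 2 ratios at d14 were also fully separate, by 2.24 and 1.08 (exact permutation p = 0.10 each), and the third overlapped, with a difference of 0.68 (exact permutation p = 0.20). Without 48 h replicate 2 these 3 differences from 48 h cells were 1.06, 0.57 and 0.46 on the log2 scale, and without 48 h replicate 3 that of Psmb10 over Psmb7 was 1.06. Between 48 h and uninjured cells only Psmb10 over Psmb7 was fully separate, by 2.04 (exact permutation p = 0.10).

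**Figure D4:**
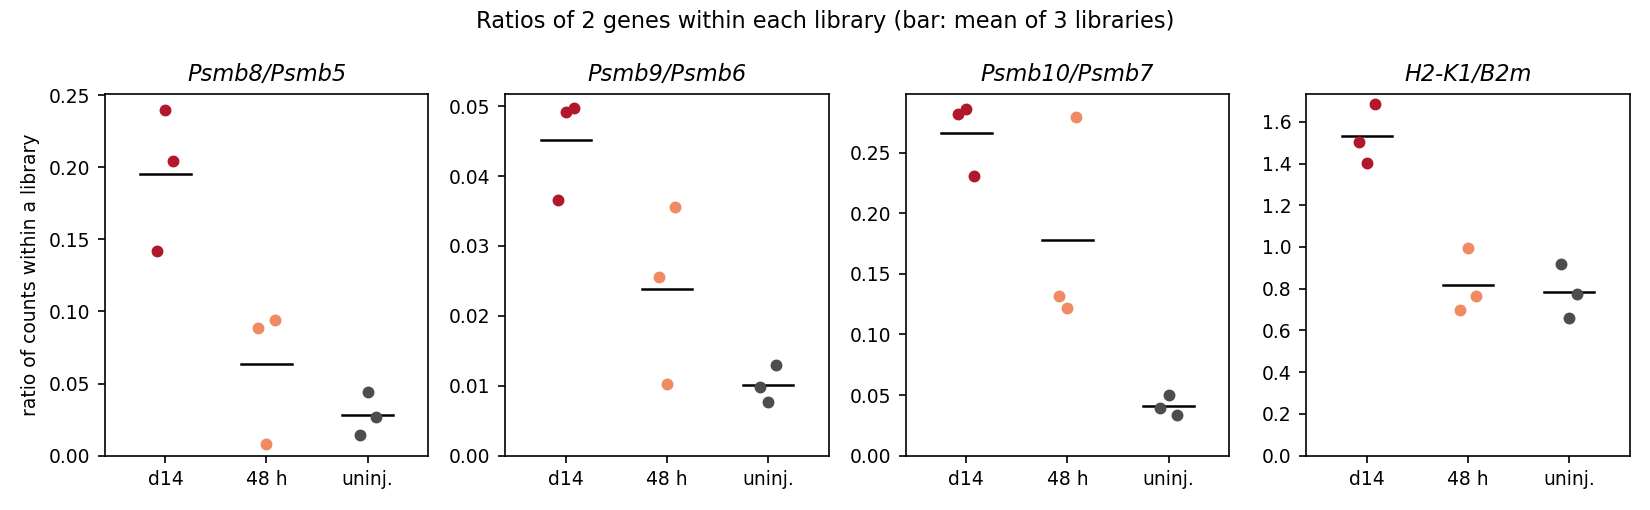
Ratio of counts of 2 genes within each library (points) and the mean of each group (bars), Sox9 d14, Sox9 48 h and uninjured from left to right. The 3 ratios of an immunoproteasome to a standard subunit and the ratio of H2-K1 to B2m are higher in every d14 library than in every uninjured library.

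Nlrc5 RNA was low and rose in both injured groups. It had 3.20, 7.20 and 4.16 CPM at d14, 3.14, 2.30 and 4.01 CPM at 48 h, and 1.09, 0.702 and 1.35 CPM in uninjured cells. All injured libraries lay above the uninjured ones, on 16 to 182 counts. The log2 fold change was 2.205 ± 0.459 at d14 (edgeR adjusted p = 0.0022) and 1.60 ± 0.46 at 48 h (edgeR adjusted p = 0.023, from 0.0022 to 0.081 over its alternatives), the second lost without 48 h replicate 3, uninjured replicate 1 or uninjured replicate 2. Between d14 and 48 h it was 0.61 ± 0.44 (edgeR adjusted p = 0.32), which was called with scaling by library totals.

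Levels could be ordered per kilobase of merged exons, a length that overstates that of a single transcript. At d14 the order of mean CPM per kb was B2m with 235, H2-D1 with 108, H2-K1 with 105, Tapbp with 39.3, Tap2 with 10.2, Psmb10 with 7.80, Psmb8 with 4.14, Tap1 with 3.63, Psmb9 with 0.978 and Nlrc5 with 0.572. Neighbours in this order whose libraries overlapped were H2-D1 and H2-K1, Tap2 and Psmb10, Psmb8 and Tap1, and Psmb9 and Nlrc5. At 48 h the order differed in that Psmb10 with 7.78 CPM per kb stood above Tap2 with 5.995, and in uninjured cells in that Tap1 with 1.06 stood above Psmb8 with 0.792, in both cases with overlapping libraries. H2-D1 with 46.5 and H2-K1 with 34.5 CPM per kb did not overlap in uninjured cells. Nlrc5 had the lowest and B2m the highest mean per kb in all 3 groups.

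The members also varied together within the injured groups. At 48 h replicate 3 was the highest library for all 10 genes and replicate 2 the lowest for 9. At d14 replicate 1 was the lowest for 9 of the 10. In uninjured cells replicate 1 was the highest for 2, replicate 2 for 6 and replicate 3 for 2 of the members. Such ranks were not counted for all genes, so a shift of whole libraries cannot be told apart here. Pearson correlation of each member with the mean of the other members over the 9 libraries ran from 0.796 for B2m to 0.988 for Tap2. It is given as a description, since the libraries fall into 3 groups.

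Leukocyte transcripts moved with the class I genes in part. Summed over 10 pan-leukocyte markers, led at 48 h by Laptm5 and Ptprc, the level was 49.6, 43.7 and 29.2 CPM in the d14 libraries, 130, 92.6 and 265 CPM in the 48 h libraries and 20.5, 23.6 and 17.6 CPM in the uninjured libraries. At 48 h replicate 3 had the highest pan-leukocyte and class I sums of its group, while at d14 replicate 1 had the highest pan-leukocyte and the lowest class I sum. Macrophage and monocyte markers summed to 115, 151 and 67.8 CPM in the d14 libraries and 187, 124 and 400.02 CPM in the 48 h libraries. In the uninjured libraries they summed to 31.3, 37.3 and 29.8 CPM. Over uninjured cells 7 of 13 were called higher at d14 and 6 of 13 at 48 h, where 25.1% and 17.4% of all genes tested were. Of 10 pan-leukocyte markers 1 was called higher at d14 and 9 at 48 h. Among the markers tested, these numbers were 1 and 5 of 5 for neutrophils, 1 and 0 of 5 for dendritic cells, 1 and 0 of 4 for T and NK cells, and 0 and 0 of 2 for B cells. At d14 replicate 2, with the highest class I sum of its group, also had the highest macrophage and monocyte, dendritic, neutrophil and T and NK cell sums. Dendritic markers summed to 6.07 to 14.9 CPM at d14, 1.87 to 14.4 CPM at 48 h and 3.71 to 4.81 CPM in uninjured cells. Neutrophil markers summed to 3.43 to 5.90 CPM at d14, 113 to 343 CPM at 48 h and 2.80 to 8.003 CPM in uninjured cells. T and NK cell markers stayed between 2.48 and 8.08 CPM in every library, and Ifng, the interferon-gamma gene, had 13 counts in d14 replicate 2 and 0 in the other 8 libraries. Endothelial markers summed to 29.1 to 63.5 CPM at d14, 85.7 to 733 CPM at 48 h, highest in replicate 1, and 78.8 to 147 CPM in uninjured cells. Fibroblast and mural markers summed to 11.5 to 23.2 CPM at d14, 1.72 to 7.47 CPM at 48 h and 6.32 to 13.6 CPM in uninjured cells. Every d14 library was below every 48 h library in the pan-leukocyte, neutrophil and endothelial sums, the groups overlapped in the macrophage and dendritic sums, and the d14 libraries were the higher ones in the fibroblast sum. The part of leukocyte RNA in the class I differences at d14 and at 48 h was not tested.

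**Figure D5:**
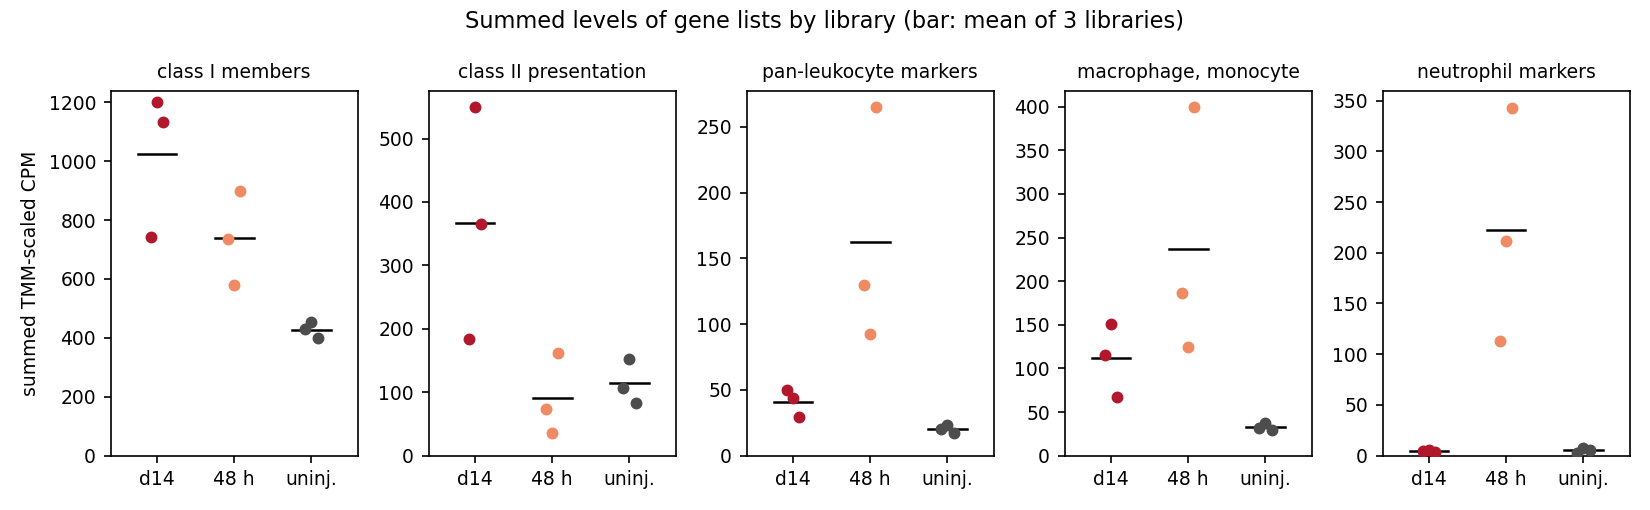
Summed TMM-scaled CPM of the 10 class I presentation genes, of class II presentation genes and of 3 leukocyte marker lists in every library (points) with group means (bars), Sox9 d14, Sox9 48 h and uninjured from left to right. The mean class I and class II sums are highest at d14, and the mean leukocyte marker sums are highest at 48 h.

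Other class I and class I-like heavy chains moved in both directions. Of 15 tested, 5 rose and 4 fell at d14 against uninjured cells. At 48 h 6 rose and 1 fell. The medians were 0.82 at d14 and 0.91 at 48 h on the log2 scale, beside 0.06 and 0.02 for all genes. Of all genes tested 25.1% rose and 20.7% fell at d14, and 17.4% rose and 11.7% fell at 48 h. The d14 counts were not far above those shares. Mr1, whose product shows riboflavin metabolites to MAIT cells, averaged 19.0 ± 5.1 CPM at d14, 5.08 ± 1.71 CPM at 48 h and 0.636 ± 0.374 CPM in uninjured cells (SD, n = 3 each), a log2 fold change of 4.88 ± 0.43 for d14 over uninjured and 1.94 ± 0.38 for d14 over 48 h (edgeR adjusted p = 0.0030). H2-Q2 rose as well, with 84, 39 and 89 counts in the d14 libraries against 5, 0 and 1 in the uninjured libraries. H2-M3, whose promoter window holds the spaced pair printed above, rose by 1.81 ± 0.61 at d14 and 2.62 ± 0.63 at 48 h. Fcgrt, the neonatal Fc receptor that recycles albumin and immunoglobulin G, fell to 79.9 ± 14.1 CPM at d14, against 204 ± 13.4 CPM in uninjured cells. Azgp1, which encodes a secreted class I-like protein, fell by 4.61 ± 0.65 on the log2 scale at d14 and by 2.98 ± 0.60 at 48 h. The remaining falls at d14 were those of the nonclassical genes H2-T22 and H2-T23, by 0.82 ± 0.22 and 0.99 ± 0.26, named because they complete the list of 4.

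Among 18 genes of class I assembly, peptide trimming and export, 4 rose and 2 fell at d14 against uninjured cells, where 25.1% of all genes tested rose and 20.7% fell. At 48 h 3 rose and 1 fell, where 17.4% of all genes tested rose and 11.7% fell, so that the shares called higher were near those of all genes. Erap1, the aminopeptidase that trims peptides in the endoplasmic reticulum, rose in both, by 1.00 ± 0.18 at d14 and 0.58 ± 0.18 at 48 h. Tapbpl, a relative of tapasin, rose by 0.59 ± 0.18 at d14. Hspa5, encoding BiP, averaged 261 ± 23.6 CPM at d14 and 599.9 ± 55.7 CPM at 48 h, against 285 ± 16.9 CPM in uninjured cells, and fell by 1.202 ± 0.122 in d14 against 48 h (edgeR adjusted p = 6.7e-05). Calr, encoding calreticulin of the loading complex, fell by 0.75 ± 0.17 in the same comparison.

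Of 8 standard proteasome genes and activators, 2 rose and 5 fell at d14 against uninjured cells. Among all genes tested 25.1% rose and 20.7% fell, so that the share that rose was near that of all genes. The 2 that rose, Psme1 and Psme2, encode the PA28 activator induced by interferon-gamma. Psme1 had 62.3, 60.01 and 62.7 CPM at d14, 43.3, 61.4 and 56.6 CPM at 48 h, and 22.1, 25.9 and 19.6 CPM in uninjured cells, a log2 fold change of 1.46 ± 0.15 at d14 and 1.25 ± 0.15 at 48 h (edgeR adjusted p = 0.00014). Psme2 rose by 0.68 ± 0.15 in each. Psme4, an activator of another type, fell by 0.62 ± 0.10 at d14.

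Among 33 genes of interferon-gamma signalling and class I transactivation, 14 rose and 1 fell at d14 against uninjured cells. At 48 h 10 rose and 2 fell. The medians were 0.48 at d14 and 0.25 at 48 h on the log2 scale, beside 0.06 and 0.02 for all genes. The shares of all genes tested were 25.1% higher and 20.7% lower at d14, and 17.4% higher and 11.7% lower at 48 h. Socs3, a feedback inhibitor of JAK-STAT signals, rose by 4.79 ± 0.35 at d14 and 4.21 ± 0.35 at 48 h. Stat3 rose by 2.27 ± 0.18 and 1.31 ± 0.18 in the same order, and by 0.96 ± 0.17 in d14 against 48 h (edgeR adjusted p = 0.0021). Relb and Nfkb1, NF-kappaB subunits, rose by 4.13 ± 0.38 and 1.51 ± 0.18 at d14, and both were also higher in d14 than in 48 h cells, by 1.31 ± 0.34 and 0.67 ± 0.18. Ifngr1, a chain of the interferon-gamma receptor, rose by 1.05 ± 0.15 at d14 and 1.10 ± 0.15 at 48 h. Rfxank, a subunit of the RFX complex at class I and class II promoters, averaged 13.6 ± 3.1 CPM at d14, 8.04 ± 0.84 CPM at 48 h and 12.7 ± 2.4 CPM in uninjured cells and fell by 0.65 ± 0.22 at 48 h against uninjured cells.

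Of 27 other interferon-gamma response genes, with Psme1 and Psme2 counted again, 11 rose and 1 fell at d14 against uninjured cells, with a median of 0.95, and 7 rose and 2 fell at 48 h, with a median of 0.55. Of 22 type I interferon response genes 13 rose at d14 and 11 at 48 h, with medians of 1.78 and 1.68. Beside both lists, 25.1% of all genes tested rose and 20.7% fell at d14, with a median of 0.06. At 48 h 17.4% rose and 11.7% fell, with a median of 0.02. Gbp2, a guanylate-binding protein gene, had 13.3 ± 4.7 CPM at d14, 3.27 ± 1.85 CPM at 48 h and 5.22 ± 1.48 CPM in uninjured cells, and was the one gene of its list called higher in d14 than in 48 h cells (1.95 ± 0.43, edgeR adjusted p = 0.0062).

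Class II genes serve presentation to CD4+ T cells. Of 8 tested, 2 rose at d14 and 1 at 48 h against uninjured cells, and 2 were higher in d14 than in 48 h cells. Over all genes tested 25.1% rose at d14 and 17.4% at 48 h, and 16.8% were higher in d14 than in 48 h cells. The class II counts were near these shares, but all 8 fold changes were positive at d14 against uninjured cells. Their median was 1.29 on the log2 scale, beside 0.06 for all genes. In d14 over 48 h the median was 1.99, beside 0.05, and in 48 h over uninjured cells -0.21, beside 0.02. The class II sum was 184, 550 and 366 CPM at d14 and 73.5, 35.9 and 162 CPM at 48 h. In uninjured cells it was 107, 153 and 82.6 CPM, so that 48 h and uninjured cells overlapped where class I sums did not. Every d14 class II sum lay above those of both other groups. Cd74, the invariant chain, had 91.4, 287 and 192 CPM at d14, against 29.1, 7.47 and 55.9 CPM at 48 h, a log2 fold change of 2.59 ± 0.70 (edgeR adjusted p = 0.025).

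The 5 genes whose pattern was most like that of the 10 members were sought among 9370 genes with at least 10 CPM in some group, by Pearson correlation of log2 CPM with the members' mean standardised level over the 9 libraries. They were Parp14 with r of 0.977, Irf1 with 0.975, Aoc1 with 0.971, Grk3 with 0.966 and Ifit2 with 0.965. The libraries fall into 3 groups, so any gene with that order of groups scores high. Parp14 and Ifit2 are interferon response genes, Irf1 encodes interferon regulatory factor 1, Aoc1 encodes diamine oxidase and Grk3 a receptor kinase. Irf1 averaged 20.0 ± 1.4 CPM at d14, 12.0 ± 5.9 CPM at 48 h and 4.36 ± 0.44 CPM in uninjured cells (SD, n = 3 each), with 6.75 CPM in 48 h replicate 2 and 18.4 CPM in 48 h replicate 3.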

How the data were processed

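RNA-seq of 9 libraries of sorted mouse kidney cells was used, 3 per group. The authors deposited 1 table of expected counts (RSEM), whole numbers that were not scaled for depth. Per the submitters' processing notes the tools were RSEM 1.2.28, STAR 2.6.1, R 3.6.3, DESeq2 1.26.0 and bcl2fastq 2.20, and mm10 was the mouse build. No source used here gives the annotation release or the strand setting. The 92 spike-in rows were all at 0 and were not used.

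Genes were kept with filterByExpr (minimum count 10, minimum total 15), which left 15519 genes. Counts were scaled by TMM and fitted with the quasi-likelihood model of edgeR 4.0.16 in R 4.3.3, with robust dispersion, 1 mean per group and all 9 libraries. The 3 comparisons used its F-test, and p-values were Benjamini-Hochberg adjusted over all 15519 genes. A gene was called at an adjusted p under 0.05, and SE is the log2 fold change over the square root of F. CPM is the count over the TMM-scaled library size. Ratios were compared with two-sided exact permutation tests over libraries. Alternatives were relative log expression (RLE) size factors, library totals alone, no filter, DESeq2 1.42.0, limma 3.58.1 voom with sample weights, a replicate block, the 2 groups compared alone and leaving out each library. Positions and gene lengths come from GENCODE M21 (GRCm38), and promoter windows from RefSeq GRCm38.p6.

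The 10 members were given by name, and the other gene and marker lists were chosen with earlier results of these data known. Named genes are the members, up to 4 called genes per list and comparison with the smallest p, or the 2 with the highest level in a list without calls, the standard catalytic subunits, and the 5 genes most like the members. Markers of other cell types are given as list sums, with up to 2 of the most abundant genes of a list. H2-T22, H2-T23 and Ifng are named outside this rule. The H2-K1 to B2m ratio and the spaced promoter motif were added after values or sequences were seen.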

Additional observations from a re-analysis of the deposited data

Results flagged for a closer look

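The comparison of d14 with 48 h cells tests directly whether their differences from uninjured cells differ. In it 25 of the named genes had an edgeR adjusted p under 0.05, where 16.8% of all genes tested were called higher and 16.3% lower. All non-members among the 25 except Pdia4 and Psme4 met the naming rule by being called in this comparison. Their number is therefore no result in itself. Among the members the log2 fold changes were 0.84 for H2-K1, 1.12 for Tap1, 0.75 for Tap2 and 0.84 for Tapbp. Of the other named genes 9 were higher in d14. These were Mr1 with 1.94, Relb with 1.31, Stat3 with 0.96, Nfkb1 with 0.67, Rfxank with 0.75, Uggt2, a folding sensor of glycoproteins, with 1.24, Gbp2 with 1.95, Cd74 with 2.59 and the class II gene H2-Eb1 with 2.19. The other 12 were lower in d14. Among heavy chains these were Hfe with -0.79, Fcgrt with -1.13 and H2-T24 with -2.13. Chaperone and translocon genes were Hspa5 with -1.20, Pdia4 with -0.34, Calr with -0.75 and Sec61g with -0.91. Proteasome genes were Psmb5 with -0.81, Psmb6 with -0.65, Psmb7 with -0.58, Psme4 with -0.48 and Pomp, an assembly factor, with -0.74. The signs of Pdia4 and Psme4 turned when libraries were scaled by their totals alone.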

How the results depend on the processing

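Of 480 alternative values of the members' fold changes, 430 kept their side of the threshold, 34 were no longer called, 16 became called and 0 turned direction with a call. Leaving out single libraries gave 2 to 10 members higher in 48 h over uninjured, 8 to 10 in d14 over uninjured and 2 to 5 in d14 over 48 h, and the other settings gave 6 to 9, 8 to 10 and 3 to 6. Genes called lower in 48 h over uninjured numbered 1147 to 1995 without single libraries, 1147 without uninjured replicate 1 and 1208 without uninjured replicate 3. Scaling by library totals alone moved the all-gene median (log2) from 0.06 to 0.63 in d14 over uninjured and from 0.05 to 0.63 in d14 over 48 h, with 7315 genes higher and 1417 lower, and 6812 higher and 934 lower. Under that scaling 8 values of other named genes that were called under it or in the reported fit changed sign: in d14 over uninjured Hspa5 to 0.44, Psmb5 to 0.16, Pomp to 0.11 and Psmb6 to 0.0487, and in d14 over 48 h Pdia4 to 0.24, Psme2 to 0.56, Ifngr1 to 0.52 and Psme4 to 0.0873. The H2-K1/B2m ratio (log2) in 48 h over uninjured, 0.06, ran from -0.0905 to 0.176 without single libraries, with -0.0905 without 48 h replicate 2 and -0.0598 without uninjured replicate 2. What made these values change was not tested. With a replicate block 6, 9 and 4 members were called in 48 h over uninjured, d14 over uninjured and d14 over 48 h. Deviations of log2 CPM from the group mean of each gene correlated at -0.127 to 0.019 between same-numbered libraries of different groups. With 0 of 9 pairs over 0.1, the numbers were not taken as pairs. Depth limits Psmb8 and Psmb9 most, at 8 and 10 counts in 48 h replicate 2.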
